A study of Mus musculus with 3 samples.

Results

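The genes described here encode the transferases that add sialic acid, fucose, galactose, N-acetylgalactosamine (GalNAc) and N-acetylglucosamine (GlcNAc) to the sugar chains of glycoproteins and glycolipids. They were taken as every gene whose symbol on the array began with St3gal, St6gal, St8sia, Fut, B3gnt, B3galt, B4galt, Galnt or Gcnt and went on to a number, which gave 72 of 17742 genes. The group was chosen because St8sia5 was known to be far higher in resistant cells, so every difference between resistant and sensitive cells below is a description and no p-value is given for a member. The resistant group was 1 array of B117HS, a mouse myeloid leukaemia line of the BXH-2 strain raised from B117P by exposure to increasing concentrations of cytarabine (Ara-C) for about 10 weeks, with an IC50 about 10 times that of its parent. The sensitive group was 2 arrays of the parental line B117P, replicates 1 and 2, of the same strain. Both are lines from bone marrow, 1 line for each condition, so the drug response and any other difference between the lines cannot be told apart. Whether the parental arrays came from separate cultures is not stated in the labels.

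Sialyltransferases end a sugar chain with sialic acid in an alpha-2,3, alpha-2,6 or alpha-2,8 linkage, and they draw on CMP-sialic acid in the Golgi. Fucosyltransferases add fucose to the core or to the outer arms of a chain, and galactosyl- and GlcNAc-transferases build the lactosamine that both then decorate. On leukocytes these chains form sialyl Lewis x, which binds selectins, the alpha-2,6-sialylated ligands of the lectin CD22, polysialic acid and the gangliosides, which are sialylated glycolipids.

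Each array gave a linear intensity for 26423 probes, with values below 0 after the authors' background subtraction. The median intensity was 24.9 units on the resistant array and 58.4 and 72.5 units on the sensitive arrays. The median log2 ratio of the resistant array to the parental ones was -0.87 among the 6019 bright probes, those that reached 500 units in both parental samples. Values were therefore compared as deposited and after each array had been scaled to remove that shift. Differences are given on the log2(intensity + 50) scale as resistant minus the mean of the sensitive arrays, on the deposited scale unless stated, and this scale understates the change of dim genes. A gene was called higher or lower where it differed by at least 1 from each sensitive array and passed a limma Benjamini-Hochberg adjusted p of 0.05, on both the deposited and the scaled values. The number of arrays limits the precision, since the fit takes the spread of the single B117HS array to be that of B117P. In such bulk RNA, fewer cells of a type and less RNA per cell cannot be told apart.

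Of the 72 members, 12 were called higher in resistant cells (16.7%, against 5.22% of all genes) and 6 lower (8.33%, against 7.68% of all genes). On the deposited scale by itself 12 members were called higher and 12 lower, against 5.23% and 18.5% of all genes (23.7% in either direction). On the scaled values by themselves 23 members were called higher and 6 lower, against 11.0% and 7.84% of all genes (18.8% in either direction). Thus 6 members were called lower as deposited only and 11 were called higher on the scaled values alone. The members' median difference was -0.0068 as deposited and 0.25 after scaling, against -0.33 and -0.02 over all genes. For 25 members the higher group mean was under 50 units, and 11 read at most 10 units on all 3 arrays. None of these 25 was called, and their probes give no level to compare. Between the sensitive arrays, which the choice of the group did not use, 1 of 72 members differed by at least 1 on the log2 scale (B4galt3, 1.06), against 0.857% of all genes.

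**Figure D1:**
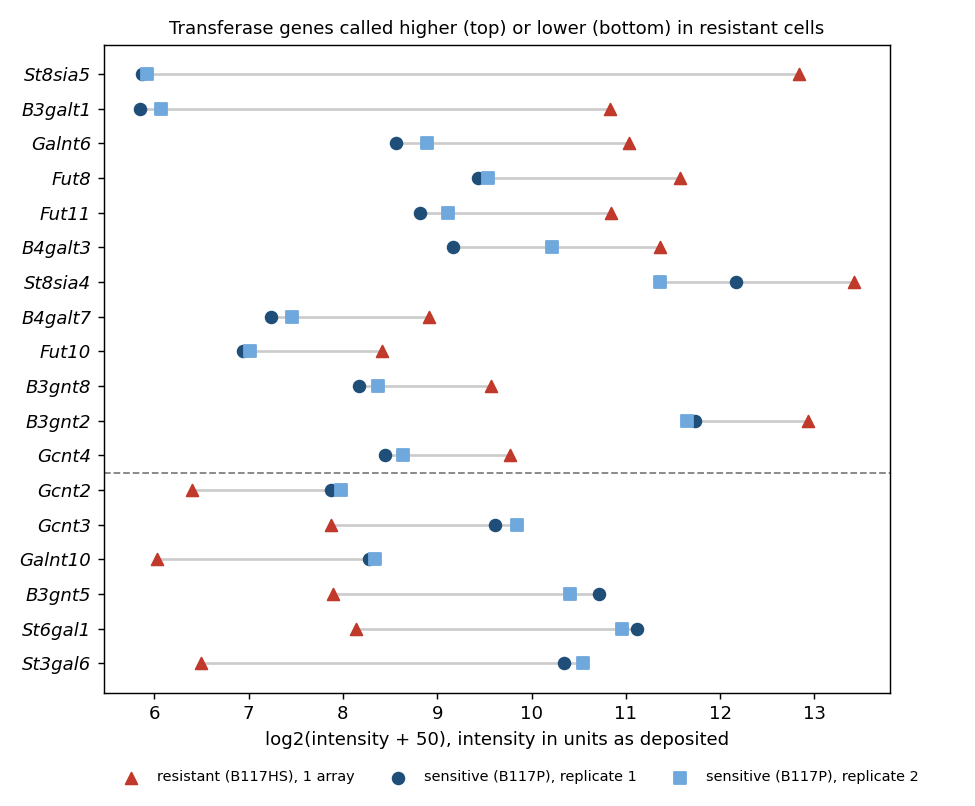
Values of the 18 called members on each array, as log2(intensity + 50) on the horizontal axis, with a triangle for the resistant array and a circle and a square for sensitive replicates 1 and 2. The 12 genes above the dashed line lie to the right of both sensitive arrays in resistant cells and the 6 below it to the left, and St8sia5 has the widest gap (6.93).

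Among the alpha-2,8-sialyltransferases, St8sia5 was bright in resistant cells and near background in sensitive cells, St8sia4 was higher in resistant cells, and the other 4 genes were not called. The 2 called higher were 33.3% of the class, against 5.22% of all genes. Of the 4 not called, St8sia1 and St8sia6 were too dim to compare. St8sia5 adds a sialic acid to gangliosides to form the polysialylated brain types such as GQ1b and GT1a. St8sia5 read 7241 units in resistant cells, against 8.70 and 10.6 units in sensitive cells, a log2 difference of 6.93 as deposited and 7.80 after scaling. The sensitive readings lie within the range of probes near 0, so they bound the level there and do not measure it. St8sia4, the polysialyltransferase that extends polysialic acid on a few carrier proteins, read 10889 units in resistant cells, against 4556 and 2584 units in sensitive cells. The sensitive arrays lay apart for St8sia4 (replicate 2 minus replicate 1, -0.81 on the log2 scale), and the resistant array was above both, at a difference of 1.65 from their mean. St8sia2, the other polysialyltransferase, read 54.4 units in resistant cells and 135 and 219 units in sensitive cells and was not called on either scale. St8sia1, the GD3 synthase, read 3.11 units in resistant cells and 7.45 and 5.28 units in sensitive cells. St8sia6, which acts on O-glycans, was likewise near 0 on all arrays, with 10.6 units at most. St8sia3, which acts on N-glycans and glycolipids in brain, was dim in resistant cells and differed by -0.71.

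The 3 measured genes on either side of St8sia5 in the annotation were looked at as well, chosen after the values were seen. None of the 6 was called, where 12.9% of all genes were called in either direction. Of the 6, 4930465K10Rik read at most 19.8 units on all arrays, too dim to compare. Pias2, next to it on one side, read 529 units in resistant cells and 538 and 524 units in sensitive cells, while Loxhd1, next to it on the other, stayed near background on all arrays, with 17.1 units at most. Loxhd1 was thus too dim to compare as well. The rest were Haus1 (-0.65), Katnal2 (-0.54) and Hdhd2 (0.53).

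St8sia5 acts late in the ganglioside route, and the genes of the earlier and later steps did not move as one. The route starts with glucosylceramide, made by Ugcg, which read 2522 units in resistant cells and 3953 and 5512 units in sensitive cells, a log2 difference of -0.88 as deposited and -0.01 after scaling. Lactosylceramide is then made by B4galt5 and B4galt6. B4galt5 read 266 units in resistant cells and 95.7 and 198 units in sensitive cells and was called higher on the scaled values alone (0.73 as deposited, 1.50 scaled), and B4galt6 was near 0 on all arrays. St3gal5, the GM3 synthase, was dim throughout, with 24.9 units in resistant cells and 64.6 and 81.8 units in sensitive cells. B4galnt1, the GM2 and GD2 synthase, which is no member by its symbol, was called higher with 8038 units in resistant cells, against 1396 and 2482 units in sensitive cells (2.08). B3galt4, the GM1 synthase, read 569 units in resistant cells and 278 and 290 units in sensitive cells, called higher on the scaled values alone (0.89 as deposited, 1.71 scaled), and its other probe differed by 0.47 as deposited.

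The alpha-2,3-sialyltransferases St3gal1 and St3gal2, which act on O-glycans and gangliosides, had differences of opposite sign. St3gal1 was called higher on the scaled values alone (0.76 as deposited, 1.56 scaled), and St3gal2 was called lower as deposited only (-1.18, and -0.39 scaled). On the breakdown side, Hexa, the alpha subunit of beta-hexosaminidase A, was called lower with 266 units in resistant cells and 4476 and 4607 units in sensitive cells (-3.86). Its cofactor gene Gm2a, the GM2 activator, was called lower as deposited only (-1.87). The beta-galactosidase gene Glb1 was called higher (1.20). In the list of ganglioside and glycolipid turnover, which holds B4galnt1 too, 5 of 10 measured genes were called higher and 1 lower (against 5.22% and 7.68% of all genes). The other 3 higher genes were the lysosomal hydrolase genes Gla (2.77), Galc (1.51) and Smpd1 (1.36).

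**Figure D2:**
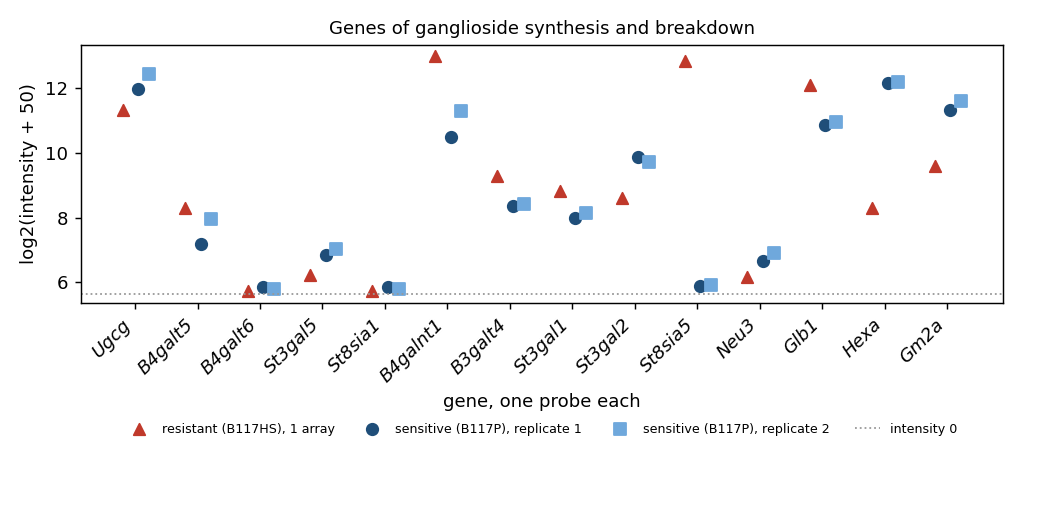
Intensity of the genes of ganglioside synthesis (Ugcg to St8sia5, in the order of their steps) and breakdown (Neu3 to Gm2a) on each array, as log2(intensity + 50), with a triangle for the resistant array and a circle and a square for the sensitive arrays. The dotted line marks intensity 0, where the sensitive arrays lie for St8sia5 and all 3 arrays for B4galt6 and St8sia1; each gene has its own probe, so heights compare arrays and not genes.

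Among the other sialyltransferases, 1 of 6 alpha-2,3 genes (16.7%) and 1 of 8 alpha-2,6 genes (12.5%) were called lower, against 7.68% of all genes. None was called higher, against 5.22% of all genes. St3gal6, which sialylates lactosamine and contributes to selectin ligands, read 40.4 units in resistant cells, against 1249 and 1446 units in sensitive cells, a log2 difference of -3.95 as deposited and -3.49 after scaling. St6gal1, which adds the alpha-2,6-linked sialic acid of N-glycans, read 232 units in resistant cells, against 2170 and 1938 units in sensitive cells (-2.90, and -2.15 scaled). In both, the resistant array lay far below 2 sensitive arrays that were close to each other. St3gal4, the other main alpha-2,3 enzyme of leukocyte selectin ligands, read 2195 units in resistant cells and 1319 and 1442 units in sensitive cells, and it was called higher on the scaled values alone (0.65 as deposited, 1.51 scaled). St3gal3, which acts on lactosamine chains too, was called lower as deposited only (-1.07, and -0.36 scaled).

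The St6galnac genes act on O-glycans and gangliosides, and none was called on both scales. St6galnac6 was called higher on the scaled values alone (0.59 as deposited, 1.39 scaled), and St6galnac4 on neither scale (-0.38 and 0.45). St6galnac1, St6galnac2, St6galnac3, St6galnac5 and St6gal2 read at most 18.5 units on every array.

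CD22, a B-cell lectin that binds alpha-2,6-linked sialic acid, was lower together with St6gal1, with 132 units in resistant cells and 959 and 934 units in sensitive cells for Cd22 (-2.45). Of 6 measured B-cell marker genes, Cd79b (-3.88) and Vpreb1 (-2.98) were also called lower and Ebf1 was called higher (1.59). Those shares were 33.3% and 16.7%, against 7.68% and 5.22% of all genes. Cd79a was called lower as deposited only (-1.15). The summed intensity of that list was 688 units in resistant cells and 4666 and 5045 units in sensitive cells. In that list Ms4a1 was at most 10 units on all arrays, and the part of these markers in the St6gal1 result was not tested. The myeloid label was checked with 12 progenitor genes, of which Mpo was among the brightest (80905 units in resistant cells, 76710 and 84138 units in sensitive cells). Elane (4.96) and Ctsg (1.14) were called higher (16.7%), and Cd34 (-2.39), Spi1 (-2.06) and Csf1r (-5.14) were called lower (25%). Over all genes the shares were 5.22% and 7.68%. Itgam was called lower as deposited only (-1.89), and Cebpa (1.82 scaled) and Cebpe (1.27) higher on the scaled values alone. T-cell, erythroid and megakaryocyte marker lists had no called gene, where 12.9% of all genes were called in either direction. Of the 7 stromal and neural genes Pdgfra alone was called (higher, 1.61). Both group means were under 50 units for 5 of 6 T-cell, 2 of 3 erythroid and 4 of 5 megakaryocyte genes. So they were for 5 of the 7 stromal and neural genes. These dim probes give no level to compare, so the lack of calls says little about those cell types.

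Of 8 fucosyltransferase genes, 3 were called higher (37.5%) and none lower, against 5.22% and 7.68% of all genes. The classic enzymes of Lewis x were not among those 3. Fut8 encodes the enzyme of core alpha-1,6-fucose on N-glycans. Fut8 read 2990 units in resistant cells, against 639 and 694 units in sensitive cells, which is 4.49 times their mean as deposited and a log2 difference of 2.09 (2.95 scaled). Fut11, a relative of the alpha-1,3-fucosyltransferases, read 1790 units in resistant cells, against 401 and 505 units in sensitive cells (1.88). Fut10, of the same branch, read 292 units in resistant cells, against 73.3 and 79.1 units in sensitive cells (1.44), while its other probe read 38.9 units against 17.4 and 18.5 units, dim on all arrays.

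Fut7, which completes sialyl Lewis x in leukocytes, read 526 units in resistant cells and 466 and 464 units in sensitive cells, a log2 difference of 0.16. It was not called on the scaled values either, at 0.98. Fut4, the second alpha-1,3 enzyme of myeloid cells, differed by 0.51 on its brighter probe, called higher on the scaled values alone (1.34), and by -0.21 on its other probe. Fut9 was near 0 on all arrays, Fut1 read at most 17.1 units, and Fut2, which makes the H antigen with Fut1, differed by -0.22.

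For sialyl Lewis x the genes of the steps before fucose were mixed as well. Gcnt1, which starts the core 2 branch that carries the structure on O-glycans, read 2666 units in resistant cells and 4265 and 3319 units in sensitive cells (-0.49, and 0.37 scaled) and was not called. B4galt1, the main lactosamine galactosyltransferase, read 1934 units in resistant cells and 846 and 995 units in sensitive cells, and it was called higher on the scaled values alone (1.04 as deposited, 1.89 scaled). As deposited it missed the size asked against replicate 2 (log2 difference of 0.93 from that array, and 1.15 from replicate 1). Selplg, the protein backbone of the P-selectin ligand, was not called, with 6765 units in resistant cells and 7048 and 7409 units in sensitive cells. Of the 13 measured genes of selectins and carriers, Cd24a (-3.43), P-selectin itself (Selp, -3.02), Cd44 (-2.99) and Cd34 (-2.39) were called lower (30.8%, against 7.68% of all genes) and Lamp2 (1.74) was called higher. Spn (1.93 scaled) and Lamp1 (1.49) were called higher on the scaled values alone.

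**Figure D3:**
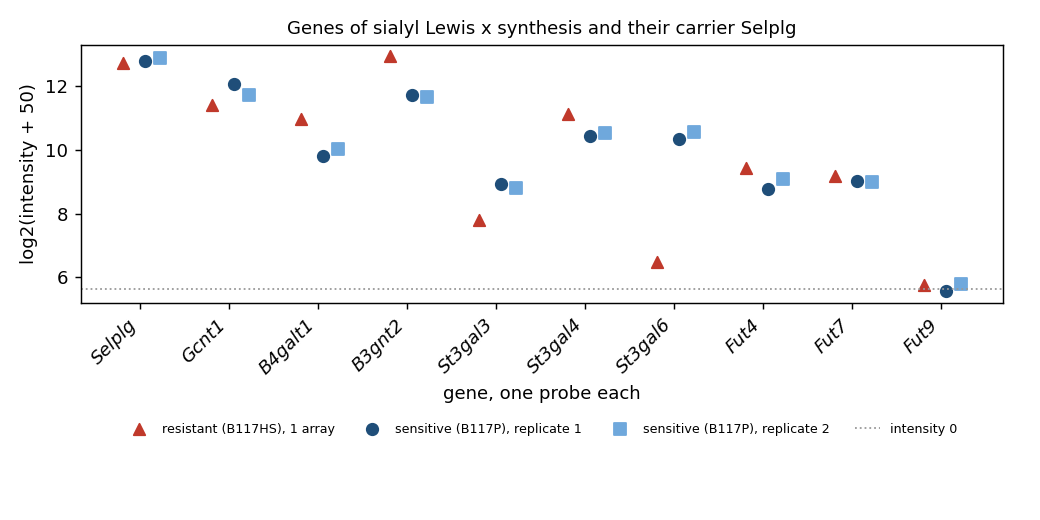
Intensity of the genes of sialyl Lewis x synthesis and of its carrier Selplg on each array, as log2(intensity + 50), with a triangle for the resistant array and a circle and a square for the sensitive arrays. The dotted line marks intensity 0. St3gal6 shows the widest gap among these genes (-3.95), B3gnt2 is higher in resistant cells (1.24), and Fut7 lies within 0.16 of the sensitive mean; each gene has its own probe, so heights compare arrays and not genes.

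Of the galactosyltransferase genes, B3galt1, B4galt3 and B4galt7 were called higher, where 5.22% of all genes were. B3galt5 and B3galt6 were called lower on the deposited scale alone, and B3galt4, B4galt1 and B4galt5 were called higher on the scaled values alone. B3galt1 makes type 1 chains by adding galactose in beta-1,3 linkage to GlcNAc. B3galt1 read 1780 units in resistant cells, against 7.45 and 17.1 units in sensitive cells, a log2 difference of 4.88 as deposited and 5.74 after scaling. As for St8sia5, the sensitive readings were near background. Of the 6 measured genes nearest to B3galt1 in the annotation, Stk39 was called higher (1.45) and 4933409G03Rik lower (-1.79). Over all genes 12.9% were called in either direction. B3galt5, another type 1 enzyme, was called lower as deposited only (-1.24, and -0.89 scaled).

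B4galt3, a lactosamine galactosyltransferase, read 2585 units in resistant cells, against 523 and 1144 units in sensitive cells. This is the member whose sensitive arrays lay farthest apart, and the resistant array was above both (1.67). The glycosaminoglycan linker is built by B4galt7 and then B3galt6, 2 consecutive steps. B4galt7 was called higher with 432 units in resistant cells and 101 and 127 units in sensitive cells (1.56), and B3galt6 was called lower as deposited only, with 74.7 units in resistant cells and 328 and 293 units in sensitive cells (-1.53, and -0.95 scaled). B4galt4 was not called on either scale (-0.82, and -0.01 scaled), and B3galt2 and B4galt2 read at most 22.4 units on every array.

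Among the GlcNAc-transferases of the beta-1,3 class, 2 genes for lengthening lactosamine on glycoproteins were called higher and the glycolipid enzyme gene B3gnt5 was called lower. Of the 9 genes of this class, 22.2% were called higher and 11.1% lower, against 5.22% and 7.68% of all genes. B3gnt2, the main polylactosamine synthase, read 7754 units in resistant cells, against 3355 and 3164 units in sensitive cells (1.24). B3gnt8, which in human cells acts in a complex with that enzyme, read 709 units in resistant cells, against 239 and 282 units in sensitive cells (1.29). B3gnt5, which starts the lacto-series glycolipids from lactosylceramide, read 188 units in resistant cells, against 1633 and 1312 units in sensitive cells (-2.67), and its other probe differed by -2.23. The 2 probes of B3gnt5 therefore moved alike. B3gntl1 was called lower as deposited only (-1.13), and its dimmer probe read 28.0 units in resistant cells and 281 and 245 units in sensitive cells. The probe named B3gnt1, an older name of both B3gnt2 and B4gat1, differed by 0.21 and was called higher on the scaled values alone (1.06), and which gene it measures was not settled. B3gnt7 differed by -0.81 and B3gnt3 by 0.07, and B3gnt4 and B3gnt6 read at most 14.5 units.

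The beta-1,6 class branches O-glycans and lactosamine. Of its 5 genes, 2 were called lower and 1 higher (40% and 20%, against 7.68% and 5.22% of all genes). Gcnt3, the mucin-type enzyme for core 2 and core 4 branches, read 185 units in resistant cells, against 736 and 869 units in sensitive cells (-1.85). Gcnt2, which makes the I branch of polylactosamine, read 34.2 units in resistant cells, against 184 and 203 units in sensitive cells (-1.53). The Gcnt2 call was lost with quantile normalization (-0.90), with centring on the median and with an offset of 100, and the Gcnt3 call with an offset of 100. Gcnt4, a further core 2 enzyme, was called higher with 826 units in resistant cells and 299 and 347 units in sensitive cells (1.23). Gcnt7 was near 0 on all arrays.

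The polypeptide GalNAc-transferases start mucin-type O-glycans, and 10 of the 18 genes were under 50 units in both group means. In this class 1 gene was called higher and 1 lower (5.56% each, against 5.22% and 7.68% of all genes). Galnt6 read 2053 units in resistant cells, against 329 and 423 units in sensitive cells, which is 5.46 times their mean and a log2 difference of 2.31 (3.17 scaled). The other Galnt6 probe was dim, with 24.9 units in resistant cells and 11.2 and 13.2 units in sensitive cells. Galnt10 read 15.6 units in resistant cells, against 260 and 273 units in sensitive cells (-2.27). Galnt11 was called lower as deposited only, with 1041 units in resistant cells and 2999 and 3337 units in sensitive cells (-1.56, and -0.72 scaled). Galnt1 (0.37), Galnt7 (0.73) and Galnt18 (0.51) were called higher on the scaled values alone, and Galnt2 (-0.78) and Galnt4 (0.04) on neither.

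**Figure D4:**
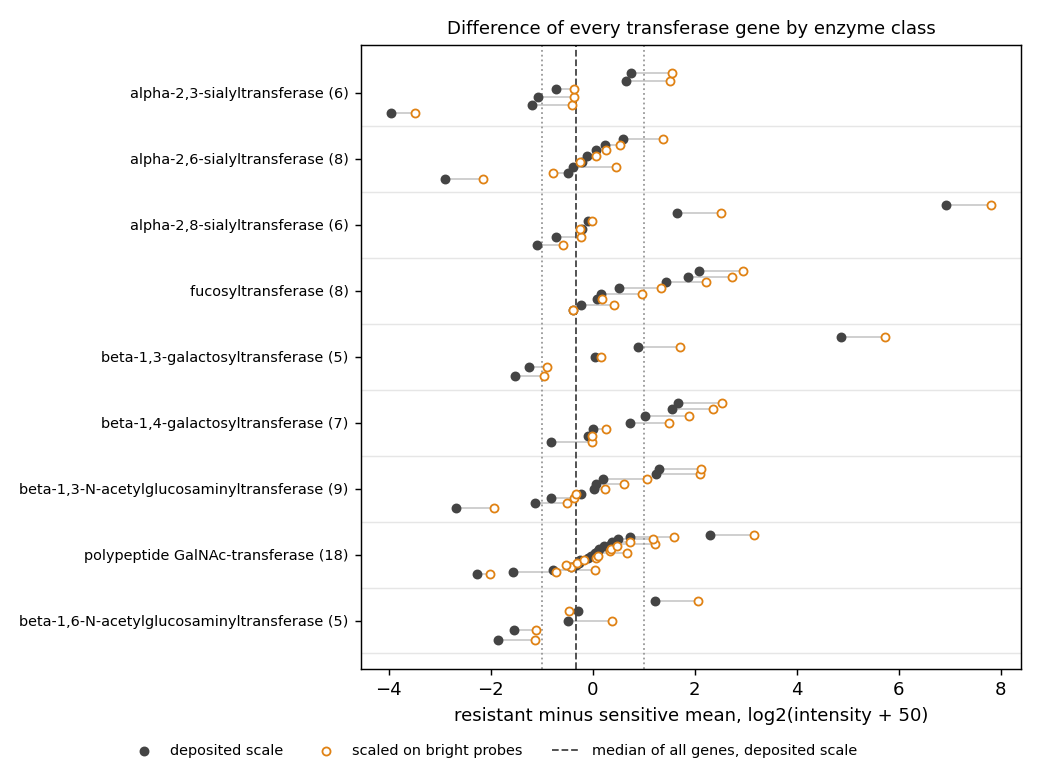
Log2 difference between resistant and sensitive cells for all 72 members, 1 line per gene, grouped by enzyme class with the number of genes in brackets; filled points are deposited values, open points are values scaled on bright probes, dotted lines mark differences of -1 and 1, and the dashed line is the median of all genes as deposited (-0.33). Scaling moves the brighter genes to the right and leaves dim genes near 0, and St8sia5 lies apart from the other alpha-2,8 genes at 6.93 and 7.80.

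By position, the 71 members with a known chromosome lay on 19 chromosomes. Chromosome 16, singled out after the values were seen, held 5 members, St3gal6, St6gal1, B3gnt5, B3galt5 and B4galt4. All 5 had a difference below 0 as deposited, 3 were called lower on both scales, and their median was -2.67. Of all 570 measured genes of chromosome 16, 55 were called lower (9.65%), and of its 360 genes that were not dim, as all 5 members were, 15.3% were. The median over those 360 genes was -0.75, against -0.69 over all genes that were not dim. Of the 6 measured genes nearest to St3gal6, Filip1l was called lower (-2.36), and of the 6 nearest to St6gal1, Adipoq (-1.16) and Rtp4 (-5.44) were called lower.

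The promoter windows of 2 members higher in resistant cells and 2 members lower are shown, so that the start regions behind large differences in each direction can be read. Windows run from 250 bases before to 50 bases after the most upstream start listed by RefSeq on GRCm38.p6, 5′ to 3′ on the gene's strand, and 53 of 72 members had one. Capitals mark a TATAAA box, a CCAAT box, a GGGCGG box, the GAGGAA core of PU.1 sites or a TTCNNNGAA STAT element on either strand, letters that may overlap one another. B3galt1 lies at chr2:67565439-67565738 on the plus strand, Galnt6 at chr15:100729327-100729626 on the minus strand, St3gal6 at chr16:58524204-58524503 on the minus strand and St6gal1 at chr16:23224490-23224789 on the plus strand. These genes have 2, 2, 2 and 3 starts listed in that order, and the arrays do not tell which start was used.
B3galt1: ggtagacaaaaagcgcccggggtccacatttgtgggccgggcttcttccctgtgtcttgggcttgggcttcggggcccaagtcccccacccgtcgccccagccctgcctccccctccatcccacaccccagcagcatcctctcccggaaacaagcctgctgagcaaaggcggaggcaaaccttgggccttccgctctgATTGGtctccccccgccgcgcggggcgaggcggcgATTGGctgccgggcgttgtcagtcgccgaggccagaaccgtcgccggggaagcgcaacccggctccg
Galnt6: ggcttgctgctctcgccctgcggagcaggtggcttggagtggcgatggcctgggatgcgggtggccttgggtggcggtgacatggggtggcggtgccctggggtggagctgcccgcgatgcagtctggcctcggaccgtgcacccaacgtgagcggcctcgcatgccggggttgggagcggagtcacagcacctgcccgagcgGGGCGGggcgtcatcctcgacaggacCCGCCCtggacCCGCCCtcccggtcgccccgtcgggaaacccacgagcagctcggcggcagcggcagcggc
St3gal6: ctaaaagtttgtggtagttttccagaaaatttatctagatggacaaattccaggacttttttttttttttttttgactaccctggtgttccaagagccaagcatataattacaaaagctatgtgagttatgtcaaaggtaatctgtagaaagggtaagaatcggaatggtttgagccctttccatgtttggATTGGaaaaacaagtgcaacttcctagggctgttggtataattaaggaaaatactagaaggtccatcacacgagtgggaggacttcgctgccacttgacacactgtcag
St6gal1: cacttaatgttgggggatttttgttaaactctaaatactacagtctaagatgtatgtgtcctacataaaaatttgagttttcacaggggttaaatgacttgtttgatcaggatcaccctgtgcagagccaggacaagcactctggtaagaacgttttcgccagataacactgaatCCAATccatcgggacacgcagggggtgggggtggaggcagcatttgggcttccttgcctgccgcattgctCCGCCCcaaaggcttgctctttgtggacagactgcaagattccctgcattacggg
The B3galt1 window holds 2 CCAAT boxes and the Galnt6 window 3 GGGCGG boxes, the St3gal6 window holds 1 CCAAT box, and the St6gal1 window 1 of each. GGGCGG was found in 36 of the 53 members' windows (67.9%), against 35.9% of all 27025 windows, and TATAAA in 2 (3.77%), against 14.2% of all. The 27025 windows include genes that the array did not measure, so the sets compared are unlike. CCAAT was in 18 (34.0%, against 38.0% of all), GAGGAA in 17 (32.1%, against 28.3%) and TTCNNNGAA in 4 (7.55%, against 8.42%). Among members called higher GGGCGG was in 7 of 10 windows and CCAAT in 6, and among those called lower GGGCGG was in 2 of 5 windows and CCAAT in 2.

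Genes that supply these transferases with activated sugars were counted by list, in either direction. The share called was 16.7% for CMP-sialic acid, 0% for GDP-fucose and 8.33% for the UDP sugars, against 12.9% of all genes. Of 12 genes of CMP-sialic acid supply and removal, Neu1, the lysosomal sialidase, was called higher (1.29) and Npl, the sialic acid lyase, lower (-1.17). Cmas, which activates sialic acid, read 2397 units in resistant cells and 3588 and 3815 units in sensitive cells (-0.62, and 0.24 scaled), and Nans, which makes sialic acid phosphate, differed by -0.67. Nanp, the phosphatase between these steps, was called lower as deposited only (-1.54), and Slc35a1, the Golgi transporter of CMP-sialic acid (1.63 scaled), and Siae (1.41) were called higher on the scaled values alone. None of 13 genes of GDP-fucose supply and fucosidases was called on both scales. Among them Gmppa was called lower as deposited only (-1.20, and -0.35 scaled), while Pmm1, Fpgt and the transporter gene Slc35c1 were called higher on the scaled values alone. Of 12 genes of UDP-galactose, UDP-GalNAc and UDP-GlcNAc supply, Slc35a3, a Golgi transporter of UDP-GlcNAc, was called higher with 954 units in resistant cells and 166 and 202 units in sensitive cells (2.10). Galt, which makes UDP-galactose, and Nagk were called lower as deposited only (-1.73 and -1.55), and Slc35a2, the Golgi transporter of UDP-galactose (1.56 scaled), and Gfpt1 (1.61) were called higher on the scaled values alone.

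The list of genes for the same linkages with other names, transferases and a chaperone, had 4 of 17 called higher and 1 lower (23.5% and 5.88%, against 5.22% and 7.68% of all genes). On the scaled values by themselves 9 of the 17 were called higher, against 11.0% of all genes. Beside B4galnt1, the genes called higher on both scales were Pofut2 (1.39), Mfng (1.29) and C1galt1c1 (1.25). Pofut2 adds O-fucose to thrombospondin repeats, Mfng extends O-fucose on Notch, and C1galt1c1 is the chaperone of the core 1 enzyme. B3galnt1, the globoside synthase, was called lower (-1.59). The core 1 enzyme gene C1galt1 itself was called higher on the scaled values alone (0.91 as deposited, 1.73 scaled), as were B3glct (1.95 scaled), Lfng (1.68), Pofut1 (1.39) and Ggta1 (1.20).

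N-glycan trimming and branching genes were called higher in 2 of 12 cases (16.7%, against 5.22% of all genes) and lower in none. Man2a1, the Golgi alpha-mannosidase II that precedes complex N-glycans and core fucose, read 8031 units in resistant cells, against 528 and 545 units in sensitive cells (3.78). Man1a, an earlier Golgi mannosidase, read 949 units in resistant cells, against 84.5 and 125 units in sensitive cells (2.70). Mgat4a, a branching GlcNAc-transferase, was called lower as deposited only (-1.38), and Mgat1 (1.17 scaled), Mgat2 (1.62) and Man1a2 (1.08) were called higher on the scaled values alone. Of 15 measured lectin genes that read sialic acid or galactose, none was called higher and 6 were called lower (against 7.68% of all genes). These were Cd22, Siglecg (-2.21), Siglech (-1.34), Lgals1 (-3.55), Lgals9 (-2.44) and Clec10a (-2.70). Lgals1, the galactose-binding galectin 1, read 4771 units in resistant cells, against 50672 and 62825 units in sensitive cells. Cd22 and Siglecg are B-cell lectins. Of the B-cell markers, Cd79b (-3.88) and Vpreb1 (-2.98) were called lower and Ebf1 (1.59) higher (33.3% and 16.7%, against 7.68% and 5.22% of all genes). Of the myeloid markers, Csf1r (-5.14), Cd34 (-2.39) and Spi1 (-2.06) were called lower and Elane (4.96) and Ctsg (1.14) higher (25% and 16.7%, against those same shares of all genes). The part of those markers in the lectin values was not tested.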

How the data were processed

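Expression was measured on 3 single-colour arrays, 1 of resistant and 2 of sensitive cells, grouped by their titles. The authors deposited linear intensity values for 26423 probes, which hold values below 0; how these were normalized is not stated in the labels. Probes were named through the platform annotation: 20377 had 1 symbol and 6046 none. Older symbols were updated through RefSeq names (1877 updated, 32 older names of several genes kept), giving 17742 genes, each read from its brightest probe over the 3 arrays. Values were compared as log2(intensity + 50), computed from the deposited intensity, with limma 3.58.1 in R 4.3.3 (lmFit and eBayes with trend, 1 residual degree of freedom) over all genes, as deposited and after scaling each array on the bright probes (500 units or more in both B117P samples). The resistant array was multiplied by 1.83 there. All 4212 genes past the size on deposited values also passed the adjusted p, so size decided those calls. The script was tested on simulated data. Any member could be named: St8sia5 first, then by class those called on both scales, those called as deposited only and the brightest in sensitive cells. Of each pathway list the rule took the called genes, at most 4 by size, and up to 2 of the brightest not called; other list genes, neighbours and chromosome 16 were picked after their values were seen. Promoter windows and gene positions came from RefSeq, GRCm38.p6. The members and lists were chosen with earlier results of these data known. Alternatives changed the scaling, offset, floor, filter, probe rule, size and sensitive replicate.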

Additional observations from a re-analysis of the deposited data

How the results depend on the processing

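St8sia5 differed by 6.93 as deposited, by 7.80 after scaling on bright probes, 7.10 after quantile normalization, 7.56 after centring on the median, 8.15 with an offset of 16, 6.07 with an offset of 100 and 7.18 with values floored at 50 units, and by 6.91 to 6.96 without either sensitive replicate. The members' median of -0.0068 changed sign with the scaling (0.25), quantile (0.19), centring (0.62), without the dimmest 25% of genes (0.11), without members under 50 units (0.16, added after seeing the data) and without sensitive replicate 2 (0.043, against -0.066 without replicate 1), and was 0 with the floor, so its sign is not settled. The 12 members called higher became 23 on scaled values alone, 21 with centring, 4 at a size of 2, 0 with the floor, and 12 to 14 without 1 sensitive replicate. The 6 called lower became 12 on deposited values alone, 3 at a size of 2, 0 with the floor, and 6 to 7 without 1 sensitive replicate. With limma and the floor, 18 of 18 called members kept the size and 16 of them had an unadjusted p under 0.05, but 6335 genes were equal on both sensitive arrays and 157 genes in all were called. Under alternatives added for them after seeing the data, the 26 called genes of the pathway lists became 43 on scaled values alone, 3 with the floor, 41 at a size of 0.6, 8 at a size of 2, and 28 to 30 without 1 sensitive replicate. The share of higher calls among all called genes was 40.5%, and 22.0% as deposited, 58.3% scaled, 52.6% with quantile normalization, 57.1% with centring and 84.7% with the floor. Leaving aside the floor and the sizes, 9 of 12 higher and 4 of 6 lower calls were kept in all 12 alternatives; B4galt3 and St8sia4 were lost with quantile normalization although their differences were larger there (2.16 and 1.85), Gcnt2 was lost there with a smaller one (-0.90), and Fut10 was lost with the mean of probes, Gcnt2 also with centring and an offset of 100, and Gcnt3 with an offset of 100. Among those 12 alternatives, either scale alone and leaving out either sensitive replicate could not lose a call, because each call already met them. They are therefore no check of those calls. Without 1 sensitive replicate, size alone was asked and no adjusted p. No paired analysis was possible because the resistant group has 1 array and shares fewer than 2 replicate numbers with the sensitive group. Signal over background limits the 25 dim members, and 1 resistant array gives no spread of its own.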
